A study of Rattus norvegicus with 6 samples.

Results

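The protein kinase C (PKC) isoforms are a family of serine and threonine kinases, and their genes were taken from the table of RNA-seq values by name. Rows named exactly Prkca, Prkcb, Prkcd, Prkce, Prkch, Prkci, Prkcq or Prkcz were sought, and 7 of the 8 names were found among 27321 features. No row carried the name Prkcb. A row named KPCB_RAT, which is the UniProt entry name of rat PKC beta, lies on chromosome 1 of rn4 from 181264421 to 181459856, and 10 of its 12 nearest named neighbours in the table also flank Prkcb in the RefSeq gene list of a later assembly, GRCr8. Its values are given separately, and it is not counted among the 7 isoforms.

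The tissue was the IM tip, where the inner medulla of the kidney ends, from male Sprague-Dawley rats that were 3 months old and weighed about 150 g at purchase. The 3 control rats received vehicle into the tail vein and the 3 STZ rats received streptozotocin (STZ), a toxin of the insulin-producing beta cells, at 62.5 mg/kg, and tissue was taken 15 days later. Both groups are intact rats of 1 sex and strain at 1 time point, so the design gives no earlier or later stage of diabetes. The IM tip was sequenced whole, so for a bulk value fewer cells of a type and less RNA per cell cannot be told apart.

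The values are normalized counts, the uniquely mapped reads of each gene divided by a single factor per library. Reads on genes numbered between 3412311 and 5575171 per library. By the column headers every control library ran on lane 3, while STZ replicates 1, 2 and 3 ran on lanes 7, 6 and 8, and lane and treatment cannot be told apart. The labelled tissue was set beside cell type markers. Aqp2, Aqp3 and Aqp4, water channels of collecting duct principal cells, had control means of 2881, 8100 and 4645 normalized counts. The proximal tubule receptor Lrp2 had 14.9. Of the same principal cell list, Scnn1a and Scnn1b had control means of 8.07 and 19.9, and Scnn1g had 64.1 to 109 in control libraries. Thick ascending limb markers summed to between 1099 and 1886 in control libraries. The purity of the dissection was not tested. The labels number the replicates, which were taken as separate rats because the authors give n = 3 per group.

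PKC isoforms fall into classes by what switches them on. Conventional isoforms, such as alpha and beta, need both calcium and diacylglycerol, a lipid that phospholipase C cuts from membrane phosphoinositides when a Gq-coupled receptor or a receptor kinase is engaged. The nPKC isoforms (delta, epsilon, eta, theta) need diacylglycerol but not calcium. Atypical isoforms (iota and zeta) respond to neither and act in complexes with the cell polarity proteins Par3 and Par6. In the kidney, PKC is known as a regulator of collecting duct water, sodium and urea transport, and high glucose is known to raise diacylglycerol.

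Of the 7 isoforms, none passed an adjusted p-value of 0.05 between STZ and control rats by limma on log2(normalized count + 1), fitted over 13486 features whose mean normalized count was 5 or more. Among all features tested, 2.1% passed. None passed with edgeR's quasi-likelihood test or with DESeq2 either, where 2.13% and 4.43% of the features did. DESeq2 gave no adjusted p-value for Prkca, which therefore could not pass there. At an unadjusted p under 0.05 there was 1 isoform by limma and 1 by edgeR, Prkcd in each case, and 0 by DESeq2, against 14.7%, 15.0% and 13.1% of all features. The largest differences were those of Prkcd and Prkci, which were higher in STZ rats by log2 fold changes of 0.51 and 0.42, and of Prkch, which was lower by a log2 fold change of −0.45. All 7 isoforms had means of at least 5 and so were tested, and each exceeded in all 6 libraries the background, set at the 95th percentile over genes of olfactory receptors. Each fold change divides STZ by control after 1 is added to the normalized counts, on a log2 scale, and so understates the change of genes with few reads.

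**Figure D1:**
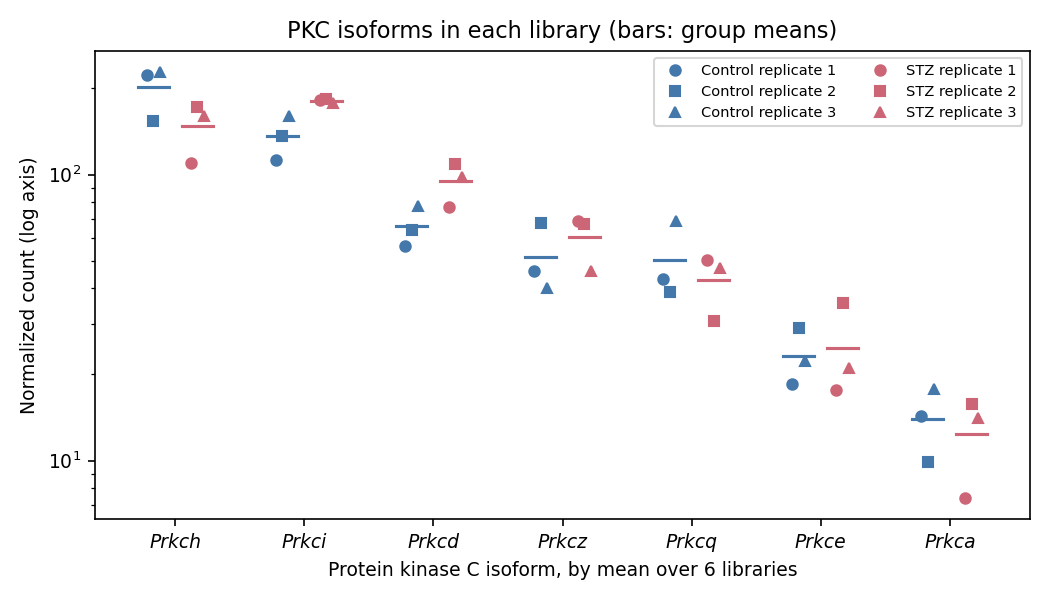
Normalized counts of the 7 PKC isoforms (log axis) in each of 3 control and 3 STZ libraries, with 1 symbol per replicate number and bars at the group means. Prkci is the only isoform whose 3 STZ values, from 178 to 183, all lie above its 3 control values.

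Among the conventional isoforms, Prkca was the lowest of the 7. It encodes PKC alpha, the widely expressed calcium-dependent isoform, and lies on chromosome 10 of rn4 from 97367447 to 97618133. Control replicates 1, 2 and 3 had 14.4, 9.92 and 17.8 normalized counts of Prkca, and STZ replicates 1, 2 and 3 had 7.43, 15.8 and 14.1. These values rest on 8 to 16 reads per library, and the groups overlapped. The log2 fold change of Prkca was −0.19 (limma adjusted p = 0.922, SE 0.43), with a 95% interval from −1.14 to 0.76.

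KPCB_RAT, the row that carries the protein name of PKC beta, had 23.6, 16.8 and 33.4 normalized counts in control rats against 28.8, 29.7 and 31.1 in STZ rats. All 3 STZ values lay inside the control range. Its log2 fold change was 0.32 (limma adjusted p = 0.734, SE 0.31).

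The nPKC isoforms held the gene with the most reads in control rats. Prkch, the gene of PKC eta, an isoform known from epithelia, lies on chromosome 6 from 96069353 to 96281786. Control replicates 1 to 3 had 222, 154 and 228 normalized counts of Prkch, and STZ replicates 1 to 3 had 110, 172 and 161. Control replicates 1 and 3 were above all other libraries, while control replicate 2 lay below STZ replicates 2 and 3, so the groups overlapped. The means were 202 ± 41.2 and 147 ± 33.3 (n = 3 each, SD), a log2 fold change of −0.45 (limma adjusted p = 0.426, SE 0.24, 95% interval −0.98 to 0.07). A merged row for Prkch and Tmem30b covers the same locus and was listed at 0 in all 6 libraries.

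Cell type markers moved beside Prkch. Of the 6 endothelial markers measured, Emcn and Plvap were lower in STZ rats at an adjusted p under 0.05 (limma), as were 0.927% of all features tested. In 4 of the 6, Emcn, Plvap, Tek and Cdh5, all STZ values lay below all control values, which was so for 10.3% of all features. Pecam1 had 780 ± 273 and 774 ± 118 normalized counts, and Flt1 had the higher mean in STZ rats, with 26.3 ± 10.5 and 50.3 ± 12.6 (limma adjusted p = 0.189). The summed endothelial level ran from 7011 to 9098 normalized counts in control libraries and 3662 to 4041 in STZ libraries. Most of that sum was Emcn, the endothelial sialomucin endomucin, with 5510 ± 892 and 2095 ± 132 normalized counts. Of the 4 intercalated cell markers, 3 were lower at that threshold, and the sum ran from 449 to 661 in control libraries and 165 to 237 in STZ libraries. The 3 thick ascending limb markers measured had sums from 1099 to 1886 and from 210 to 597, with Umod and Egf lower. The part of these cell types in the level of Prkch was not tested. The principal cell sum, from 10791 to 18725 in control libraries and 18348 to 35413 in STZ libraries, had none of its 6 measured markers past the threshold. Aqp2, Scnn1b and Scnn1g had all STZ values above all control values, which was so for 10.1% of all features.

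Prkcd encodes PKC delta, a widely expressed isoform with known roles in apoptosis and stress responses, and lies on chromosome 16 from 5954205 to 6030380. The control libraries had 56.4, 64.1 and 77.9 normalized counts of Prkcd, and the STZ libraries 77.1, 109 and 98.4. The groups met at a single point, since STZ replicate 1 lay just under control replicate 3, and the other 2 STZ libraries were above all controls. The means of 66.1 ± 10.9 and 94.7 ± 16.2 (n = 3 each, SD) differed by a ratio of 1.43. The log2 fold change of Prkcd was 0.51 (limma adjusted p = 0.329, SE 0.23, unadjusted p = 0.0471), and its 95% interval of 0.01 to 1.01 is not adjusted for the number of features.

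Prkce and Prkcq were lower in reads. Prkce, the gene of PKC epsilon, lies on chromosome 6 from 9914480 to 10097311. Its libraries held 18.5, 29.0 and 22.3 normalized counts in control rats against 17.6, 35.6 and 21.1 in STZ rats. Replicate 2 was the highest of its group in both, and the STZ values spread to either side of the control values, with a log2 fold change of 0.05 (limma adjusted p = 0.975, SE 0.34, 95% interval −0.71 to 0.81). Prkcq, the gene of PKC theta, best known from T cell receptor signalling, lies on chromosome 17 from 78486785 to 78631062. It had 43.1, 38.9 and 69.0 normalized counts in control rats against 50.1, 30.7 and 47.2 in STZ rats, which overlapped, with a log2 fold change of −0.22 (limma adjusted p = 0.844, SE 0.30).

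Since Prkcq is known from T cells, leukocyte markers were set beside it. All 8 were abundant enough to be tested and none passed the threshold. The T cell receptor genes Cd3d and Cd3e had control means of 4.67 and 7.20 and STZ means of 7.29 and 14.9 normalized counts, and the leukocyte sum ran from 351 to 686 in control libraries and 521 to 598 in STZ libraries. The control range held 2 of the 3 STZ values of Prkcq and all 3 of this sum.

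The atypical isoforms are Prkci and Prkcz. Prkci encodes PKC iota, the kinase of the epithelial Par complex, and lies on chromosome 2 from 116739624 to 116801084. Control replicates 1 to 3 had 113, 137 and 160 normalized counts of Prkci, and STZ replicates 1 to 3 had 182, 183 and 178. All STZ values lay above all control values, and they lay close together, with an SD of 2.82 against 23.8 in control rats. The STZ values rest on 196, 185 and 177 reads, for which counting error alone would give a wider spread. The small SD is therefore no measure of how alike the STZ rats were. Groups that did not overlap were seen in 20.3% of all features tested, and 10.1% had their 3 STZ values above their 3 control values, and Prkci was 1 of 7 isoforms. The means of 137 ± 23.8 and 181 ± 2.82 (n = 3 each, SD) differed by a ratio of 1.32, a log2 fold change of 0.42 (limma adjusted p = 0.362, SE 0.20, 95% interval −0.02 to 0.85). A two-sided exact permutation test gave p = 0.1, the smallest that 3 libraries against 3 allow.

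Prkcz encodes PKC zeta, the other atypical isoform, and lies on chromosome 5 from 172061824 to 172169482. It had 46.1, 67.9 and 40.1 normalized counts in control rats against 68.7, 67.3 and 46.2 in STZ rats. Control replicate 2 was level with STZ replicates 1 and 2, and STZ replicate 3 was level with control replicate 1, so the groups overlapped. The log2 fold change of Prkcz was 0.25 (limma adjusted p = 0.781, SE 0.27, 95% interval −0.35 to 0.85).

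**Figure D2:**
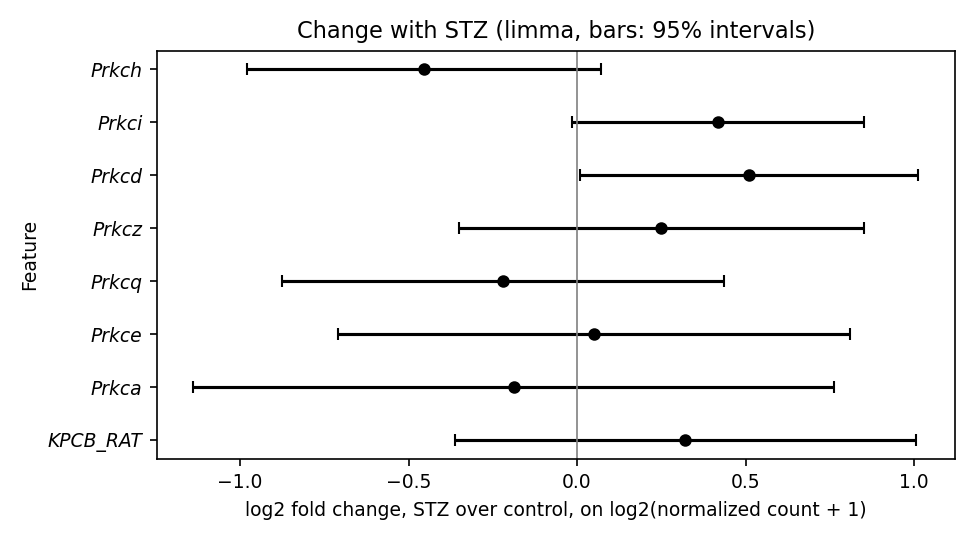
Log2 fold change of STZ over control (x axis, on the log2(normalized count + 1) scale) for the 7 isoforms and KPCB_RAT, with bars for the unadjusted 95% interval from limma. The interval of Prkcd, from 0.01 to 1.01, lies above 0, and those of the other 7 features cross it.

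The start regions of the isoforms with the highest fold changes, Prkcd, Prkci and Prkcz, are printed with matches to short promoter motifs marked. They are the 250 bases before the RefSeq start site in GRCr8, a later build than the rn4 of the expression values, and are written 5′ to 3′ on the gene's strand, which is the minus strand for all 3. Capitals mark matches on either strand to the GC box GGGCGG, the CCAAT box CCAAT, the TATA box TATAAA and the TPA response element TGANTCA, the AP-1 site named after the phorbol ester that activates PKC. Matches of different motifs did not overlap. A match is a description of the letters and not a shown binding site.
Prkcd, chr16:5805840-5806089: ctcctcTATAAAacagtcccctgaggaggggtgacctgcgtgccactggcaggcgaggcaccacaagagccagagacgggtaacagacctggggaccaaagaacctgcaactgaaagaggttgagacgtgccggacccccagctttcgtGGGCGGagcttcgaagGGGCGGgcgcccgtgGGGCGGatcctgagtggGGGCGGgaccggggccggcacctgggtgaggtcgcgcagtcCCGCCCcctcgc
Prkci, chr2:114310785-114311034: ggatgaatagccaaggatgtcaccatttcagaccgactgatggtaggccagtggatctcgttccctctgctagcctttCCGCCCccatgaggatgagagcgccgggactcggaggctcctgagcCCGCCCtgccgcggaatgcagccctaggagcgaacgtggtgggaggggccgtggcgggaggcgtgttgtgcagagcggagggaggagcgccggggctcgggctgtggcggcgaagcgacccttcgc
Prkcz, chr5:171212675-171212924: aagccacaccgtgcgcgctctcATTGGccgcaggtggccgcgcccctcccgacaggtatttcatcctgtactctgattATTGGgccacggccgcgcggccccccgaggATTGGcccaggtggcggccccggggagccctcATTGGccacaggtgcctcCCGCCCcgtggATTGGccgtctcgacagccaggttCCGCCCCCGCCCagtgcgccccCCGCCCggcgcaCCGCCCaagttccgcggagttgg

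Prkcd held 5 GC boxes, between 101 and 12 bases before the start, and a TATA box that began 244 bases before it. Prkci held 2 GC boxes and no other motif of the 4. Prkcz held 5 GC boxes and 5 CCAAT boxes, the CCAAT boxes beginning 228, 172, 142, 110 and 81 bases before the start. Over 33469 RefSeq promoters of the same length, 30.5% held a GC box, 34.0% a CCAAT box, 12.9% a TATA box and 6.34% a TPA response element. None of the 6 isoform promoters in the table (Prkca, Prkcd, Prkce, Prkcq, Prkci and Prkcz) held a TPA response element in this window, and all 6 held a GC box. Their GC content ran from 66.8% in Prkcq and Prkci to 74.8% in Prkca, against a median of 51.2% over all promoters. Prkch and Prkcb were not among these sequences.

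The order of the isoforms was that of reads per gene. No transcript lengths were used here, so the order does not compare molecules between genes, but the place of a gene can be followed from library to library. By the mean over all 6 libraries the order was Prkch, Prkci, Prkcd, Prkcz, Prkcq, Prkce and Prkca. Prkch and Prkci held the 2 highest places in all 6 libraries, with Prkch first in the 3 control and Prkci first in the 3 STZ libraries. By group means these were the 2 isoforms whose places differed between control and STZ rats. Prkca held the lowest place in all 6 libraries. Prkcd held place 3 in 5 libraries and place 4 in control replicate 2, where Prkcz was above it, and Prkcz, Prkcq and Prkce changed places among libraries of the same group.

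The ratio of Prkci to Prkch within a library does not depend on its depth. Control replicates 1 to 3 had ratios of 0.507, 0.886 and 0.702, and STZ replicates 1 to 3 had ratios of 1.66, 1.06 and 1.11. Prkci was thus below Prkch in every control library and above it in every STZ library. The mean log2 ratio was −0.55 ± 0.40 in control rats against 0.32 ± 0.36 in STZ rats (n = 3 each, SD), a difference of 0.88 (two-sided exact permutation test, p = 0.1, the smallest possible). This pair was chosen after its values were seen. The ratio of Prkcd to Prkch, also chosen after its values were seen, ran from 0.253 to 0.416 in control libraries and 0.613 to 0.703 in STZ libraries.

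Between 501 and 656 reads per library fell on the 7 isoforms together, and their summed levels overlapped between the groups, with 543 ± 63.0 normalized counts in control rats against 564 ± 50.4 in STZ rats (n = 3 each, SD; two-sided exact permutation test, p = 0.8). Within that sum, Prkch made up 37.1% ± 6.26 of the reads in control and 26.0% ± 3.97 in STZ rats. Its share ran from 30.8% (95% Wilson interval 27.4 to 34.4) in control replicate 2 to 43.3% (39.0 to 47.7) in control replicate 1, and from 21.4% (18.2 to 25.0) in STZ replicate 1 to 28.4% (24.8 to 32.3) in STZ replicate 3. The share of Prkci was 25.1% ± 2.79 in control and 32.3% ± 2.92 in STZ rats, and that of Prkcd 12.1% ± 1.02 and 16.7% ± 1.47. For these 3 isoforms the shares of the groups did not overlap (two-sided exact permutation test, p = 0.1 each, the smallest possible). In normalized counts Prkch and Prkcd overlapped between the groups and only Prkci did not. Groups without overlap in normalized counts were seen in 20.3% of all features tested. The shares of the other 4 isoforms overlapped, with p between 0.5 and 1.0 by the same test. Shares of a sum are tied to each other, since a lower share of Prkch raises the rest, and the intervals cover counting error only.

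**Figure D3:**
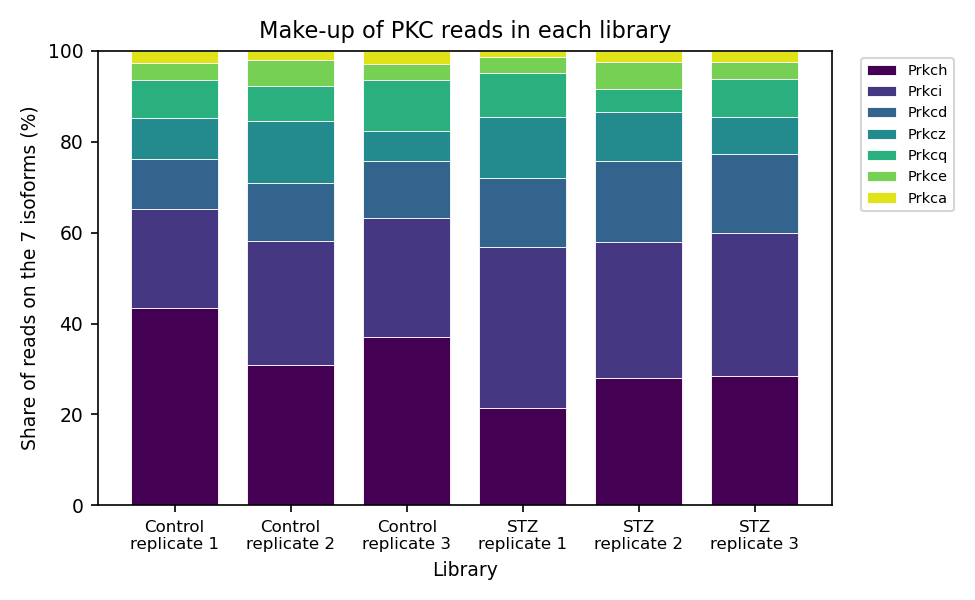
Share of the reads on the 7 isoforms (y axis, percent) taken by each isoform in each of the 6 libraries, as stacked bars. Prkch, at the foot of each bar, takes 30.8% to 43.3% in control and 21.4% to 28.4% in STZ libraries, and Prkci, just above it, takes the larger part in all 3 STZ libraries.

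By class, the 2 atypical isoforms summed to 159, 204 and 200 normalized counts in control and to 251, 250 and 224 in STZ libraries, without overlap. The ratio of means was 1.29 (two-sided exact permutation test, p = 0.1, the smallest possible). Most of this sum was Prkci, with means of 137 and 181 normalized counts, while Prkcz by itself overlapped between the groups. Of all single features tested, 10.1% had their STZ values above all control values. The 4 nPKC isoforms summed to 341 ± 55.7 and 310 ± 48.8 (n = 3 each, SD), which overlapped (p = 0.5 by the same exact test). The conventional class was Prkca alone, with a log2 ratio of STZ to control means of −0.17 that turned to 0.13 with KPCB_RAT included, to 0.035 without control replicate 3 and to 0.091 without STZ replicate 1. The sums add reads of genes of different length.

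The genes whose pattern over the 6 libraries was most like that of each of the 3 isoforms with the most reads were found by Pearson correlation of log2(normalized count + 1) among named genes whose mean normalized count was 50 or more. For Prkch these were Nid2, a basement membrane nidogen (r = 0.98), Ppfibp1, a liprin (r = 0.97), and Slc26a7, an anion exchanger of the kidney (r = 0.97). For Prkci they were Aebp1, a secreted matrix protein (r = 0.999), Ankrd17 (r = 0.99) and Sema4b (r = 0.99). For Prkcd they were Mark3, a kinase of the Par1 family, Birc6, an inhibitor of apoptosis, and Zfp278 (r from 0.985 to 0.991). Each r is the highest of 5284 candidates over the same 6 libraries, whose lanes differ between the groups, so it is a description of these libraries. Slc26a7 had 74.8, 56.4 and 83.5 normalized counts in control rats against 33.4, 63.3 and 48.2 in STZ rats, and like Prkch was lowest in STZ replicate 1. Aebp1 had 27.7, 48.8 and 81.3 in control rats against 110, 110 and 100 in STZ rats, a wider span than that of Prkci.

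The genes around PKC were followed in 7 lists with 75 genes, of which 58 could be tested. Of these 1 was higher and 0 were lower in STZ rats at an adjusted p under 0.05 (limma), or 1.72% against 2.1% of all features tested, of which 1.17% were higher and 0.927% lower. The median log2 fold change was 0.04 over the 58 genes and 0.01 over all features. At an unadjusted p under 0.05 there were 5, or 8.62% against 14.7%. The groups did not overlap for 10 of the 58 genes, or 17.2% against 20.3% of all features tested.

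**Figure D4:**
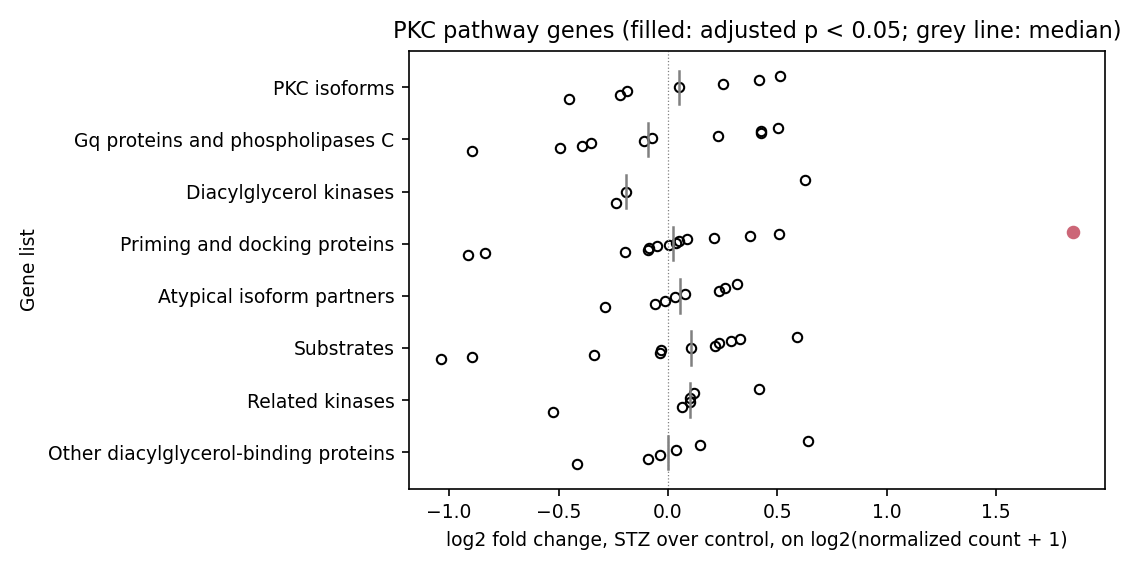
Log2 fold change of STZ over control (x axis, on the log2(normalized count + 1) scale) for each tested gene of the PKC isoforms and of 7 lists of related genes, with a grey line at the median of each list. The 1 filled point, Akap12 at 1.85, had an adjusted p under 0.05, and the open points did not.

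Upstream of the kinases, 10 of 13 Gq proteins and phospholipases C were tested and none passed, with a median log2 fold change of −0.09. Gna14, a Gq family alpha subunit, had 284 ± 78.3 normalized counts in control rats against 212 ± 36.1 in STZ rats (n = 3 each, SD), and the phospholipase Plcg1, which receptor kinases engage, had 148 ± 7.60 and 142 ± 28.4. Plcb1 had 60.5 ± 16.9 and 80.0 ± 9.11, and Plcb4 had 49.1 ± 1.24 and 57.9 ± 5.16, the latter without overlap. Plcd1, named after its values were seen, also did not overlap but was lower in STZ rats, with 37.8 ± 5.23 and 20.3 ± 5.99 (limma adjusted p = 0.182). Of the diacylglycerol kinases, which remove the lipid that activates PKC, 3 of 9 were tested and none passed. Dgkd had 19.7 ± 6.07 and 30.2 ± 2.39 normalized counts, also without overlap, at an adjusted p of 0.385 by limma.

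Among 15 priming and docking proteins, 14 were tested and Akap12 alone passed. Akap12 encodes gravin, a scaffold that binds PKC and protein kinase A at the plasma membrane, and lies on chromosome 1 from 34979038 to 35068762. It had 230, 361 and 268 normalized counts in control rats against 1210, 1283 and 678 in STZ rats. Every STZ library was above every control library, and STZ replicate 3 was the lowest of its group. Akap12 rose by a log2 fold change of 1.85 (limma adjusted p = 0.00679, SE 0.27), and of 20 alternatives it passed in 19, with adjusted p-values from 1.83e-09 to 0.110, the exception being limma without the intensity trend. Hsp90ab1, a chaperone that client kinases need to fold, had 9316 ± 1475 and 4919 ± 469 normalized counts without overlap, and its adjusted p was 0.0618 by limma and under 0.05 in 10 of 20 alternatives. Gnb2l1, the docking protein RACK1, had 2444 ± 649 and 2302 ± 127, and Hsp90aa1 had 2017 ± 323 and 1893 ± 232. Sdpr, a caveola protein that binds PKC and was named after its values were seen, had 246 ± 52.7 and 139 ± 39.9 without overlap (limma adjusted p = 0.129).

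Of 10 partners of the atypical isoforms, 8 were tested and none passed, with a median log2 fold change of 0.05. The small GTPase Cdc42, which binds Par6, had 3502 ± 761 normalized counts in control rats against 3659 ± 479 in STZ rats. Pard3 had 129 ± 36.3 and 149 ± 25.5, Pard3b had 64.6 ± 5.35 and 80.4 ± 3.59 without overlap, and Pard6b had means of 65.6 and 66.6 (n = 3 each, SD). Pard3b had an adjusted p of 0.549 by limma.

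Of 13 substrates, 11 were tested and none passed. Add3, the gamma adducin of the membrane skeleton, had 107, 122 and 96.8 normalized counts in control rats against 62.2, 55.4 and 55.2 in STZ rats, so that every STZ value was below every control value. Its log2 fold change was −0.90 (limma adjusted p = 0.052, SE 0.21), and 10 of 20 alternatives put it under 0.05. Its paralog Add1 had 140 ± 27.9 and 168 ± 52.7, the actin-binding substrate Marcks had 78.5 ± 19.6 and 96.2 ± 26.5, and Pebp1, a Raf kinase inhibitor, had 445 ± 203 and 363 ± 220 normalized counts (n = 3 each, SD).

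The related kinases, with 6 of 7 tested, and the other diacylglycerol-binding proteins, with 6 of 8 tested, held no gene past the threshold. Pkn2 had 122 ± 14.7 normalized counts in control rats against 131 ± 25.4 in STZ rats. The protein kinases D, which PKC phosphorylates, were led by Prkd3 with 111 ± 8.87 and 119 ± 15.7, followed in reads by Prkd2 with means of 22.6 and 23.7. The Ras exchange factor Rasgrp3 had 200 ± 48.8 and 149 ± 37.8, and Rasgrp2 had 42.0 ± 4.47 and 41.1 ± 5.18. Unc13b had 45.9 ± 17.9 and 71.0 ± 22.1, and the Rac regulator Chn2 had 46.4 ± 10.3 and 51.1 ± 8.71 normalized counts (n = 3 each, SD).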

How the data were processed

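The authors aligned the reads of 3 control and 3 STZ libraries to rn4 with STAR 2.3.1t, counted uniquely mapped reads per gene and normalized with DESeq 1.16.0. How reads were counted, and whether by strand, is not given in the sources used here. The values deposited by the authors are a signal, reads per feature over a library size factor. Within a library, 100.0% of the values lay within 0.01 of a whole multiple of 1 step, so whole reads were recovered for the count tests. The labels describe PCR of the cDNA and mention no molecular identifiers, so intervals cover counting error only.

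All features with a mean of at least 5 entered a limma fit (version 3.58.1, R 4.3.3) of log2(normalized count + 1), using the intensity trend, and p-values were adjusted by Benjamini-Hochberg over 13486 features. The values are not counts, so edgeR 4.0.16 and DESeq2 1.42.0 on recovered reads served as alternatives. Each fit was tested on simulated data, with 200 features changed by a log2 fold of 2. Of these, 69.5% were recovered by limma, 70.5% by edgeR and 72.5% by DESeq2. Changes as small as those of the isoforms were not simulated. Levels per coding length had been planned, but no lengths were used here, so the planned tests between neighbouring isoforms were not run. The members and gene lists were chosen with earlier results of these data known. The named genes are the 7 isoforms and, in each list, genes past the threshold and up to 4 with the highest mean. KPCB_RAT, Prkcsh, Prkcdbp, the markers, and Plcd1 and Sdpr, which were named after their values were seen, fall outside this rule. The most alike genes are the 3 with the highest correlation for each of the 3 isoforms with the most reads. List genes without a feature of their own name were not analysed here, and some named by the rule are not reported here. Background was the 95th percentile of olfactory receptor genes, between 1.86 and 9.03 normalized counts. Python 3.11.15, scipy 1.17.1 and matplotlib 3.10.9 were used for tables, exact tests and figures.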

Additional observations from a re-analysis of the deposited data

How the results depend on the processing

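Over 139 refits of the 7 isoform fold changes, 134 kept their direction, none passed an adjusted p of 0.05 and the lowest adjusted p was 0.20. The refit of Prkca by DESeq2 gave no adjusted p-value. Direction turned for the isoforms with fold changes nearest to 0: Prkca at 0.12 without STZ replicate 1, Prkcq at 0.027 without control replicate 3, and Prkce at −0.084 with the locus length trend removed, −0.10 without control replicate 1 and −0.23 without STZ replicate 2. With single libraries left out, fold changes (log2) ran from −0.40 to 0.12 for Prkca, −0.23 to 0.25 for Prkce, −0.38 to 0.027 for Prkcq, 0.40 to 0.65 for Prkcd, 0.29 to 0.54 for Prkci, −0.64 to −0.25 for Prkch and 0.093 to 0.47 for Prkcz. The number of isoforms whose place by group mean differed was 2, and ran from 2 to 4 with each library left out, the 4 being without control replicate 2. Over all features, 283 passed, against 522 with quantile normalization, 31 by limma without the trend, 597 with DESeq2 and between 88 and 352 with a library left out. It was 88, 101, 141, 163 and 182 without STZ replicate 2, control replicate 2, STZ replicate 1, STZ replicate 3 and control replicate 1. With the replicate number as a block 561 passed by limma and 544 by edgeR, and 0 isoforms in both. No source used here pairs the rats by number. Deviations of same-numbered libraries correlated with r = 0.39, −0.06 and 0.32 across 9315 features. Between differently numbered libraries of the 2 groups r ran from −0.47 to 0.22. Whether libraries of the same number share a step of handling was not tested. With KPCB_RAT included, chosen after seeing the data, the log2 ratio of the conventional class turned from −0.17 to 0.13. Without control replicate 3 and without STZ replicate 1 the conventional ratio was 0.035 and 0.091, and that of all 7 isoforms turned from 0.053 to −0.0023 without control replicate 2 and −0.011 without STZ replicate 2. The share difference of Prkcz, above 0 over all libraries, turned to −0.427 points without control replicate 3 and −0.117 without STZ replicate 1, and that of Prkce, near 0, took either sign. Prkca rests on 8 to 16 reads per library. Levels per coding length were not run. The causes of these changes were not tested.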

Other observations

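A pair of features that carry PKC in their names but encode no kinase are given as values, chosen after they were seen. Prkcsh, first described as a PKC substrate and known as the beta subunit of glucosidase II, which trims glucose from N-glycans in the endoplasmic reticulum, had 230, 241 and 203 normalized counts in control and 175, 181 and 163 in STZ libraries. Every STZ value was below every control value, as for 10.3% of all features tested, at a log2 fold change of −0.37 (limma adjusted p = 0.373, SE 0.18). Prkcdbp, a caveola protein that binds PKC delta, had 15.4, 14.5 and 15.6 normalized counts in control and 22.3, 18.8 and 25.1 in STZ libraries, without overlap, at a log2 fold change of 0.51 (limma adjusted p = 0.526, SE 0.31). Among the other cell type markers, Tagln of smooth muscle rose from 222 ± 36.9 to 558 ± 22.6 normalized counts, Pdgfra of fibroblasts from 535 ± 134 to 1073 ± 126, and Upk3a and Upk1b of urothelium from 35.3 ± 12.8 to 344 ± 19.7 and from 29.4 ± 8.63 to 70.3 ± 13.5 (SD, n = 3 each), each at an adjusted p under 0.05 by limma. These were 1 of 4 smooth muscle, 1 of 4 fibroblast and 2 of 4 urothelial markers measured, and 1.17% of all features tested were higher at that threshold. The median log2 fold change of the fibroblast list was 0.02, and its sums overlapped, from 7246 to 8926 in control and 4415 to 10530 in STZ libraries. The thin limb marker Aqp1 did not pass (limma adjusted p = 0.363).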
